A study of Mus musculus with 6 samples.

Results

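The ligands of the tumour necrosis factor (TNF) superfamily were examined in cultured mouse T cells that carry the label Treg (regulatory T). They comprised 10 genes chosen by symbol (Lta, Ltb, Tnf, Tnfsf8, Cd40lg, Fasl, Tnfsf14, Tnfsf10, Tnfsf11 and Cd70), and all 10 were present among the 24493 gene symbols of the deposited table. Messenger RNA had been sequenced from spleen naive CD4 T cells after differentiation to Treg cells in culture, in 3 Ifnar1-SA and 3 wild-type (WT) libraries. In published work, Ifnar1-SA is a knock-in allele of a type I interferon receptor chain in which a serine needed for its ubiquitin-driven breakdown is changed to alanine, so that the receptor persists. The labels give no strain, age, dose or time for either genotype. Nothing states that replicate libraries derive from different mice or cultures, so the spread behind each p-value is that between these samples. It may be partly technical, although WT 3 differed from WT 1 and WT 2 in Y-linked transcripts (values below). The comparison asked how ligand transcripts differed between Ifnar1-SA and WT cells.

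TNF superfamily ligands are trimeric proteins that sit on the cell surface or are shed from it, and they signal through receptors of the TNF receptor superfamily to NF-kB, to MAP kinases or, for the death receptors, to caspases. T cells make many of them after activation and use them to drive lymphoid tissue organisation, inflammation, costimulation and cell death. Lymphotoxin-alpha, the product of Lta, is secreted as a homotrimer that binds the TNF receptors, and it joins lymphotoxin-beta, the product of Ltb, in a membrane-bound complex that binds the lymphotoxin-beta receptor.

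Levels are given in TPM, transcript abundance corrected for length and scaled to sum to 1000000 in each library, so that levels of different genes can be set side by side. Read depth cannot be recovered from TPM, so values carry no counting interval. Between 21925 and 22958 genes were above 0 in a library, the microRNA gene Mir6236 alone took 6.52% to 11.9% of the TPM, and 0 of the 15 library pairs held identical values. Foxp3, the defining transcription factor of Treg cells, was at 0.746, 1.82 and 0.759 TPM in Ifnar1-SA cells and at 0.697, 0.295 and 0.276 TPM in WT cells, close to absent for the labelled cell type. Other Treg-associated genes were split. Il2ra (359 to 444 TPM), Ctla4 (482 to 876 TPM) and Tnfrsf18 (2371 to 3238 TPM) were abundant over the 6 libraries. Ikzf4 lay between 5.27 and 8.96 TPM, and Ikzf2, Lrrc32, Itgae and Nrp1 between 0.669 and 4.08 TPM. Foxp3 and Ctla4 were higher in Ifnar1-SA without overlap. Ctla4 was at 762 to 876 TPM in Ifnar1-SA and 482 to 698 TPM in WT (limma adjusted p = 0.9997), and Foxp3 was too low to be tested. Ifnar1 itself was at 28.0, 25.3 and 21.8 TPM in Ifnar1-SA and at 24.0, 41.9 and 27.3 TPM in WT, and gene-level TPM cannot show an amino acid change. In WT 3 the Y-linked genes Eif2s3y and Ddx3y were at 0 and 0.110 TPM. The other libraries held 10.9 to 23.2 and 2.46 to 5.59 TPM in the same order. By these transcripts WT 3 resembled female cells and the other libraries male cells, so sex was not balanced between the genotypes. Its part in the ligand values was not tested. Ifnar1-SA 1 and WT 2 stood apart in the small RNA gene Rn4.5s, at 2978 and 3846 TPM, against 14250 to 20880 TPM in the other 4 libraries.

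Genes averaging 1 TPM or more over the 6 libraries were tested as log2(TPM + 1) with limma, a linear model with a shared estimate of the spread, and p-values were adjusted by the Benjamini-Hochberg method over all 12141 genes tested. Log2 differences are Ifnar1-SA minus WT, and on this scale they understate the change of low genes. Of the 10 ligands, 9 were tested and 0 passed an adjusted p of 0.05, beside 0.0577% of all genes tested (7 genes, all microRNA genes by symbol) and 0.0412% that were lower in Ifnar1-SA. At an unadjusted p under 0.05 there were 2 ligands, Lta and Ltb, both lower in Ifnar1-SA, beside 3.12% of all genes in either direction and 1.68% lower in Ifnar1-SA. The libraries of the genotypes did not overlap for 1 ligand, Lta, beside 5.77% of all genes in either direction and 3.8% lower in Ifnar1-SA. By log2 difference 8 of the 9 ligands were below 0, where 62.9% of all genes were, and the median was −0.21 for the ligands and −0.06 for all genes.

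The lymphotoxin genes and Tnf lie side by side on chromosome 17. The stretches in front of their start sites are shown because of the values of these close neighbours. Log2 differences were −1.07 for Lta, −1.08 for Ltb and −0.21 for Tnf. Their 95% intervals overlapped, and whether the genes differ from each other in this was not tested. On GRCm38 (GENCODE M21), Ltb spans 35194439 to 35196320 on the plus strand, Tnf 35199381 to 35202007 on the minus strand and Lta 35203165 to 35205351 on the minus strand. All 3 are protein-coding, 1157 bases separate Tnf from Lta, and the whole stretch measures 10913 bases. The sequences are from RefSeq on GRCm38.p6, in the direction of transcription, and end at the last base before the annotated gene. They cover chr17:35205352-35205601 for Lta (minus strand), chr17:35202008-35202257 for Tnf (minus strand) and chr17:35194257-35194438 for Ltb (plus strand). Capitals mark matches to the motifs searched.
Lta: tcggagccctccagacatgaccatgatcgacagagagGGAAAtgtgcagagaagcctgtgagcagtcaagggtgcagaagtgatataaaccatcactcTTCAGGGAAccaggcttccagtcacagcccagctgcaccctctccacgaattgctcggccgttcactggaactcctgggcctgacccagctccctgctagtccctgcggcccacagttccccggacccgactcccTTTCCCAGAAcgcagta
Tnf: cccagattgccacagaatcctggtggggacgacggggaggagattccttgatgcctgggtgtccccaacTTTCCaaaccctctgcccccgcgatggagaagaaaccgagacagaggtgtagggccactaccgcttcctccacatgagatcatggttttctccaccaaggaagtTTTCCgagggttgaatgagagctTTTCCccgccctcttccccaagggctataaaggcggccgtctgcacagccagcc
Ltb: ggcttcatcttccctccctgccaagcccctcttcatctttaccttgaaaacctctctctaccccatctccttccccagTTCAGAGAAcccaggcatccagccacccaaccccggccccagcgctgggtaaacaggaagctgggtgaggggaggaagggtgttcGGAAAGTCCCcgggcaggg

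The motifs were searched on both strands in the 250 bases before each RefSeq start. The gamma-activated site TTCNNNGAA matched 2 times for Lta and 1 time for Ltb and did not match for Tnf, and 7.02% of the 32851 mouse windows of that length held it. The NF-kB motif (GGG, any 2 bases, TTTCC) matched 1 time for Ltb, and 1.41% of windows held it. The NFAT core GGAAA matched 2 times for Lta, 3 times for Tnf and 1 time for Ltb, against 55.6% of all windows. In Lta the NFAT match nearest the start overlaps a gamma-activated site, and in Ltb it lies within the NF-kB match. Of the 10 ligands, 8 had a RefSeq window and 0 of these held the interferon-stimulated response element (GAAA, any 2 bases, GAAA), which 2.98% of windows held. A match is only a stretch of letters, and a missing match says nothing of the factor.

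Lta had the highest mean level of the ligands, with 109, 63.0 and 101 TPM in Ifnar1-SA cells against 164, 166 and 244 TPM in WT cells. Every Ifnar1-SA library lay below every WT library. The means were 91.2 ± 24.7 TPM in Ifnar1-SA and 191 ± 46.1 TPM in WT (SD, n = 3 each), so that the Ifnar1-SA mean was 47.7% of the WT mean. Its log2 difference was −1.07 ± 0.27 (SE; 95% interval −1.71 to −0.44), at an unadjusted p of 0.00521 and an adjusted p of 0.945 in limma. By unadjusted p Lta ranked 67 of the 12141 genes, and 1.71% of all genes had a lower log2 difference. Without WT 3, the library that lacked Eif2s3y, its log2 difference was −0.88, and without Ifnar1-SA 1 and WT 2, the libraries low in Rn4.5s, it was −1.31 (unadjusted p = 0.0156, adjusted p = 0.997 in limma). In these bulk samples fewer cells that express a gene and less RNA per cell cannot be told apart.

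Ltb, which anchors the lymphotoxin complex in the membrane, was at 102, 72.1 and 68.4 TPM in Ifnar1-SA and at 92.9, 250.4 and 207 TPM in WT. WT 2 and WT 3 were far above the other 4 libraries, and WT 1 lay within the Ifnar1-SA range. The means were 80.7 ± 18.2 TPM in Ifnar1-SA and 183.5 ± 81.4 TPM in WT, with a log2 difference of −1.08 ± 0.38 (SE; 95% interval −1.98 to −0.18), an unadjusted p of 0.0248 and an adjusted p of 0.9997 in limma. Ifnar1-SA 1 and WT 2 were each the highest of their genotype, and without both the log2 difference was −0.97 (unadjusted p = 0.0774, adjusted p = 0.997 in limma). The ratio of Lta to Ltb was 1.14 ± 0.31 in Ifnar1-SA and 1.20 ± 0.55 in WT (SD, n = 3 each), with overlapping libraries.

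Each lymphotoxin gene holds an annotated microRNA gene within an intron and on its own strand, and the table lists both as rows of their own. These rows were chosen after their values were seen. Mir6974, within an Lta intron (chromosome 17, 35204475 to 35204557), was at 70.5, 57.0 and 70.5 TPM in Ifnar1-SA and at 77.1, 99.0 and 158 TPM in WT, again without overlap (log2 difference −0.69 ± 0.27 SE, limma adjusted p = 0.9997). Mir6973a, within an Ltb intron (35194972 to 35195049), was at 12.0, 25.0 and 12.0 TPM in Ifnar1-SA and at 16.6, 65.6 and 68.2 TPM in WT, with WT 1 within the Ifnar1-SA range as for Ltb (log2 difference −1.40 ± 0.57 SE, limma adjusted p = 0.9997). Over the 6 libraries, Pearson's r was 0.908 between Mir6974 and Lta (Spearman's rho 0.943) and 0.873 between Mir6973a and Ltb (rho 0.543). Hairpins of 83 and 78 bases reach such TPM from few fragments, and reads of the host gene and of the hairpin cannot be told apart here.

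Tnf, the inflammatory cytokine encoded between them, was at 12.8, 8.08 and 12.0 TPM in Ifnar1-SA and at 13.8, 10.7 and 13.4 TPM in WT. The ranges overlapped, and the log2 difference was −0.21 ± 0.20 (SE), with a 95% interval of −0.69 to 0.28 and a limma adjusted p of 0.9997. Lta exceeded Tnf 8.27 ± 0.41 times in Ifnar1-SA and 15.2 ± 3.20 times in WT (SD, n = 3 each), without overlap between the genotypes. The difference between the Lta and Tnf log2 differences was not tested. Beyond these 3 genes, 9 listed neighbours on chromosome 17 were in the table, 8 were tested, and 0 passed an adjusted p of 0.05 or an unadjusted p of 0.05 in limma. Their median log2 difference was −0.01. Aif1, a gene of macrophages and activated leukocytes, stood lowest at 0.851, 1.13 and 0.813 TPM in Ifnar1-SA and at 1.07, 2.57 and 2.22 TPM in WT (log2 difference −0.58, adjusted p = 0.9997). Nfkbil1 was at 12.5 ± 2.29 TPM in Ifnar1-SA and 15.3 ± 3.77 TPM in WT, and Prrc2a at 3.81 ± 0.71 and 3.35 ± 0.45 TPM in the same order.

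**Figure D1:**
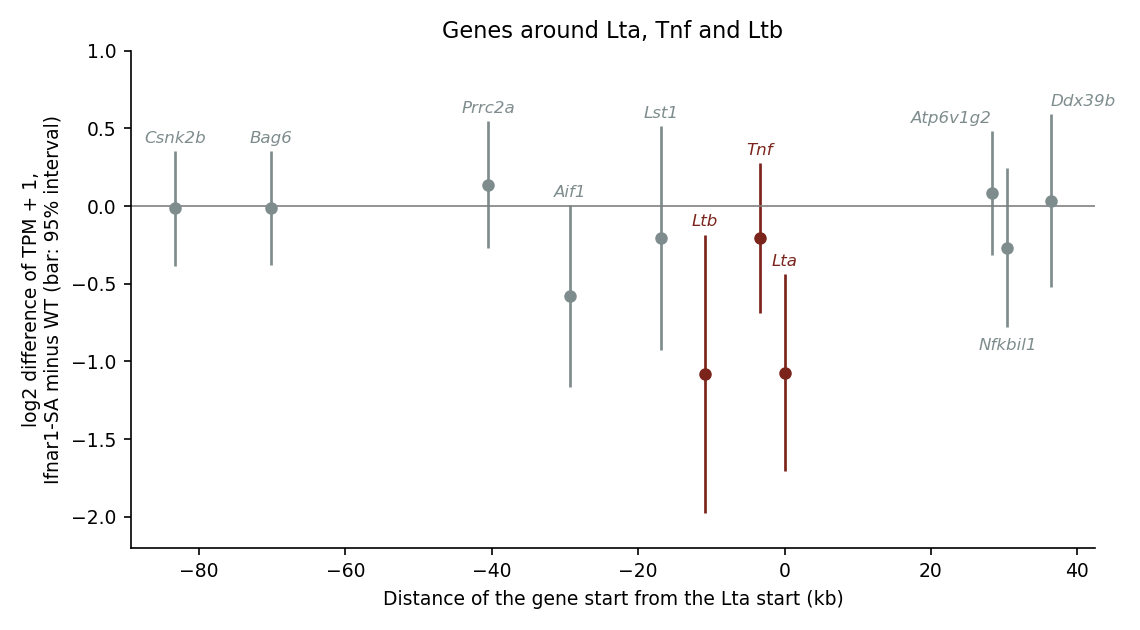
Log2 difference of TPM + 1 (Ifnar1-SA minus WT, y axis) for Lta, Tnf, Ltb and 8 tested neighbours, by distance of the gene start from the Lta start (x axis, kb); bars are 95% intervals from limma. Lta (−1.07) and Ltb (−1.08) lie below 0 with their intervals, Tnf between them is at −0.21, and the intervals of the other 8 genes reach 0.

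The ligands of CD30 and of the herpesvirus entry mediator did not separate by genotype. Tnfsf8, the CD30 ligand (minus strand of chromosome 4, 63831308 to 63861347), was at 95.9, 49.6 and 67.4 TPM in Ifnar1-SA and at 53.6, 98.3 and 112 TPM in WT. Each genotype held low and high libraries, and the log2 difference was −0.29 with a 95% interval of −1.10 to 0.53 (limma adjusted p = 0.9997). Tnfsf14, also called LIGHT, which costimulates T cells through Tnfrsf14 and also binds the lymphotoxin-beta receptor (minus strand of chromosome 17, 57189492 to 57194177), was at 7.65, 4.12 and 5.73 TPM in Ifnar1-SA and at 4.02, 6.65 and 7.80 TPM in WT. Its ranges overlapped nearly in full, with a log2 difference of −0.06 (95% interval −0.72 to 0.60). These 2 genes on different chromosomes ordered the libraries alike, with Pearson's r of 0.969 and Spearman's rho of 0.886 over the 6 libraries, which share their genotype and scaling with both genes. This was the highest r among the pairs of the 9 tested ligands.

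The receptors of these ligands did not pass either. Of 14 listed receptors of the ligands, 12 were tested and 0 passed an adjusted p of 0.05. Of the 12, 9 were below 0 with a median of −0.14, beside 62.9% and −0.06 for all genes tested. Tnfrsf8 (CD30) was the most abundant, at 80.2, 70.7 and 55.9 TPM in Ifnar1-SA and at 59.3, 86.0 and 51.9 TPM in WT, in the same range as its ligand. Ltbr, the lymphotoxin-beta receptor that stromal and myeloid cells carry, was at 1.02, 0.452 and 0.835 TPM in Ifnar1-SA and at 0.685, 0.788 and 0.610 TPM in WT, below the filter. The TNF receptors Tnfrsf1a (6.08 ± 0.89 TPM in Ifnar1-SA and 7.79 ± 2.12 TPM in WT) and Tnfrsf1b (6.38 ± 0.85 and 6.57 ± 0.27 TPM in the same order) were at similar single-digit levels. Tnfrsf14 averaged 3.23 ± 0.68 TPM in Ifnar1-SA and 2.92 ± 0.26 TPM in WT, and Btla, an inhibitory receptor that binds the same protein, 20.8 ± 4.39 and 23.8 ± 3.95 TPM.

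Of the death-inducing ligands, Fasl was the 1 tested ligand with a log2 difference above 0. Fasl (minus strand of chromosome 1, 161780689 to 161788495), which kills cells that carry Fas, was at 10.6, 6.12 and 8.48 TPM in Ifnar1-SA and at 10.7, 5.14 and 4.39 TPM in WT. WT 1 was level with the highest Ifnar1-SA library, while the other WT libraries were below all 3 Ifnar1-SA libraries, and the log2 difference was 0.34 with a 95% interval of −0.43 to 1.12 (limma adjusted p = 0.9997). Its receptor Fas was at 16.9, 13.9 and 16.0 TPM in Ifnar1-SA and at 16.7, 34.6 and 32.0 TPM in WT, with WT 1 again beside the Ifnar1-SA libraries. Fas had a log2 difference of −0.73 ± 0.28 (SE; 95% interval −1.39 to −0.07), an unadjusted p of 0.0346 and an adjusted p of 0.9997 in limma, and no other receptor had an unadjusted p under 0.05.

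Tnfsf10, also called TRAIL, is a death ligand whose gene is known as an interferon target (chromosome 3, 27317028 to 27342427, plus strand). It was at 2.57, 5.42 and 4.52 TPM in Ifnar1-SA and at 5.76, 2.74 and 4.29 TPM in WT, so that each genotype spanned about the same range. The log2 difference was −0.03 with a 95% interval of −0.73 to 0.68, and its sign turned under both other scalings (0.03 with median-of-ratios and 0.06 with quantile scaling). Of 20 listed interferon-stimulated genes, 17 were tested, 11 had an unadjusted p under 0.05 and a higher level in Ifnar1-SA, 0 passed an adjusted p of 0.05, and their median log2 difference was 0.93. The smallest p-values were those of Irf7 (27.3 ± 15.4 TPM in Ifnar1-SA and 2.80 ± 0.73 TPM in WT), Ifi27l2a (992 ± 425 and 267 ± 44.6 TPM in the same order) and Xaf1 (54.1 ± 24.3 and 15.5 ± 3.26 TPM). Earlier results of these data already showed that pattern. Tnfrsf10b, the death receptor for TRAIL in mice, was at 31.8, 43.1 and 36.5 TPM in Ifnar1-SA and at 40.0, 46.3 and 43.1 TPM in WT, and its decoys Tnfrsf22 and Tnfrsf23 averaged 15.6 ± 6.01 and 2.28 ± 0.26 TPM in Ifnar1-SA against 17.3 ± 7.89 and 2.84 ± 1.31 TPM in WT.

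**Figure D2:**
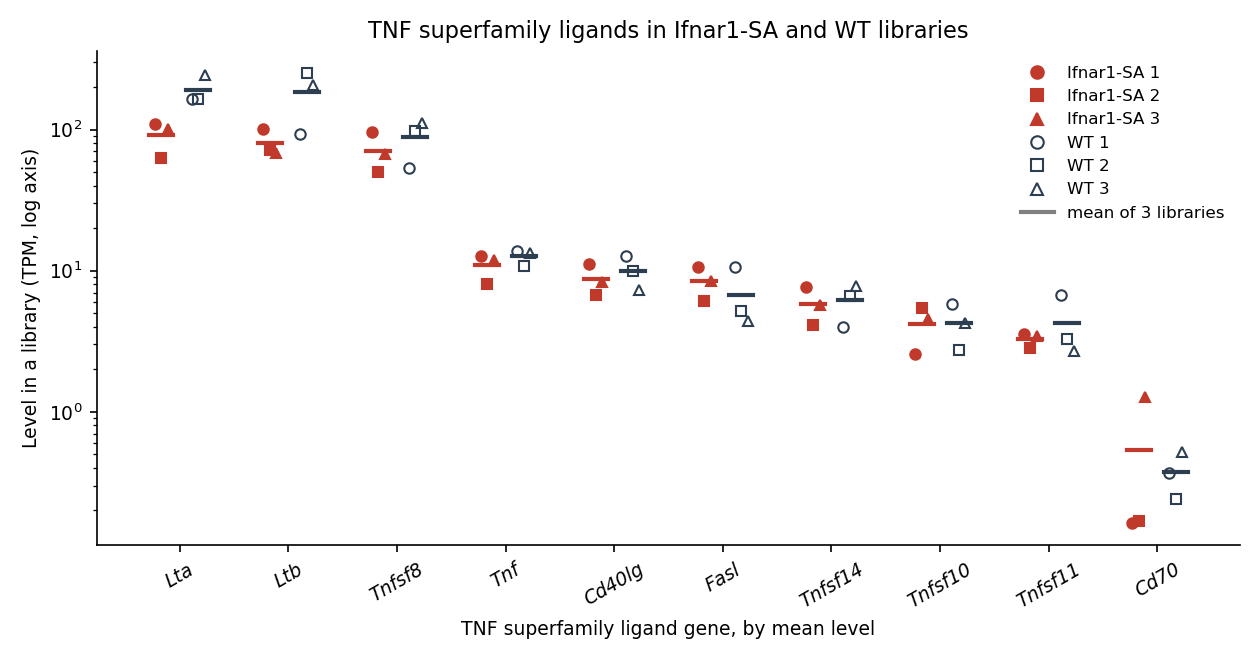
TPM on a log axis (y) for the 10 ligand genes ordered by mean level (x); filled red symbols are the 3 Ifnar1-SA libraries, open dark symbols the 3 WT libraries, marker shape is the library number and bars are means of 3. Lta, Ltb and Tnfsf8 lie between 49.6 and 250.4 TPM and the others at or below 13.8 TPM, and the genotypes are apart without overlap for Lta alone.

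The costimulatory and bone-related ligands were low. Cd40lg, by which helper T cells activate B cells and dendritic cells (chromosome X, 57212143 to 57224042, plus strand), was at 11.1, 6.67 and 8.25 TPM in Ifnar1-SA and at 12.7, 9.98 and 7.24 TPM in WT. The ranges overlapped (log2 difference −0.17, 95% interval −0.76 to 0.41). Its receptor Cd40 was at 0.881 ± 0.353 TPM in Ifnar1-SA and 1.13 ± 0.588 TPM in WT. Tnfsf11, also called RANKL, which drives osteoclast formation (minus strand of chromosome 14, 78277445 to 78308043), was at 3.56, 2.84 and 3.44 TPM in Ifnar1-SA and at 6.68, 3.30 and 2.70 TPM in WT, with WT 1 alone standing high (log2 difference −0.22, 95% interval −0.89 to 0.45). Its receptor Tnfrsf11a averaged 1.75 ± 0.26 TPM in Ifnar1-SA and 2.02 ± 0.54 TPM in WT, and the decoy Tnfrsf11b was at most 0.132 TPM in Ifnar1-SA and 0.215 TPM in WT. Cd70, which costimulates T cells through Cd27 (minus strand of chromosome 17, 57145997 to 57149777), was below the filter at 0.163, 0.170 and 1.27 TPM in Ifnar1-SA and at 0.367, 0.243 and 0.521 TPM in WT. An exact two-sided permutation test gave p = 1, where 3 against 3 libraries cannot go below 0.1. Cd27 was at 30.8 ± 1.71 TPM in Ifnar1-SA and 27.6 ± 1.71 TPM in WT (log2 difference 0.16, adjusted p = 0.9997).

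**Figure D3:**
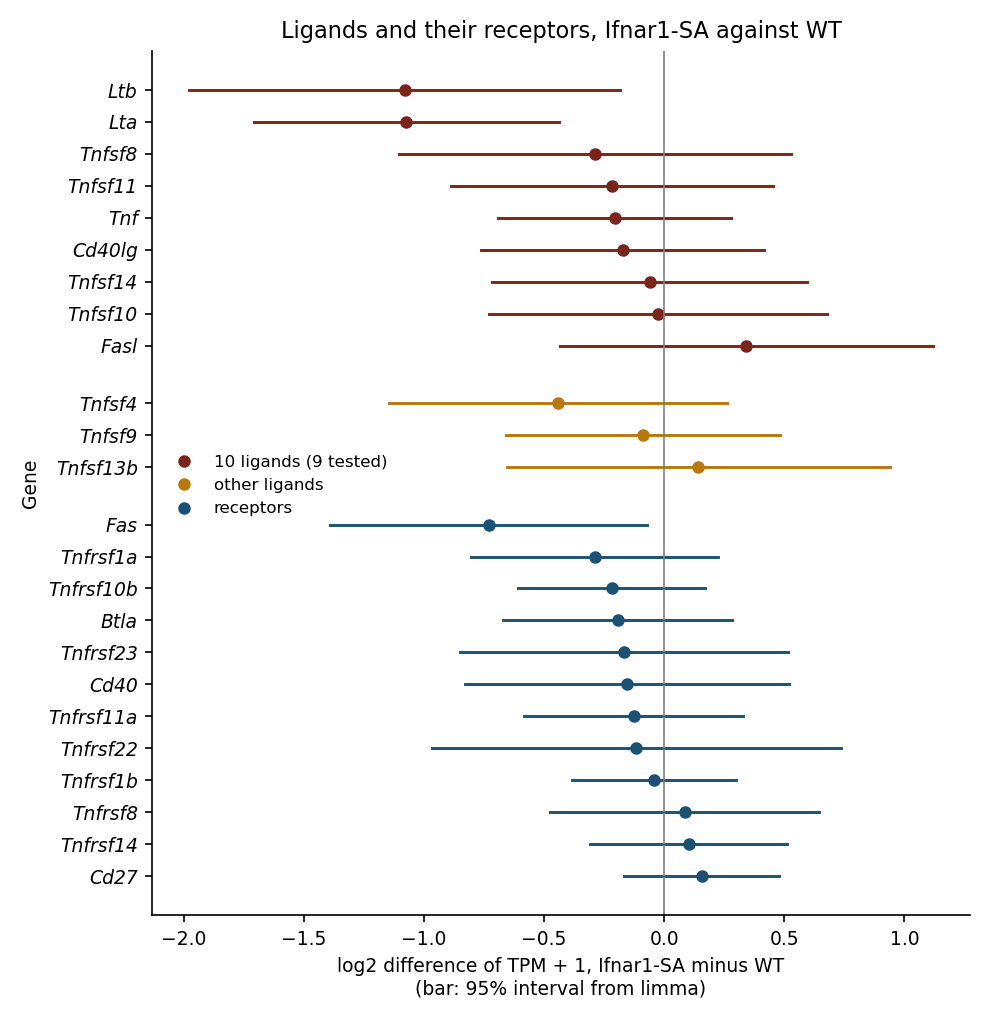
Log2 difference of TPM + 1 (x axis, Ifnar1-SA minus WT) with 95% intervals from limma for 9 tested ligands, 3 other tested TNF superfamily ligands and 12 tested receptors (y axis). The intervals of Ltb, Lta and Fas lie below 0, and all other intervals include 0.

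In order of mean level over the 6 libraries, the ligands ran Lta, Ltb, Tnfsf8, Tnf, Cd40lg, Fasl, Tnfsf14, Tnfsf10, Tnfsf11 and Cd70. Lta and Ltb overlapped in both genotypes, as did each later neighbour pair down to Tnfsf11 except Tnfsf8 and Tnf. The 10 ligands summed to 355, 218 and 281 TPM in Ifnar1-SA and to 364, 553 and 604 TPM in WT. Lta, Ltb and Tnfsf8 made up 84.5% to 86.3% of that sum in Ifnar1-SA and 85.2% to 93.3% in WT. The share of Tnfsf8 was 22.7% to 27.0% in Ifnar1-SA and 14.7% to 18.5% in WT, without overlap. This share also depends on Lta and mean Ltb, which were lower in Ifnar1-SA, and is no separate result. Ifnar1-SA 1 and WT 1 had close sums (355 and 364 TPM) but unlike Tnfsf8 levels (95.9 and 53.6 TPM). Tnfsf8 itself averaged 70.9 TPM in Ifnar1-SA and 87.8 TPM in WT, with overlap. Within Ifnar1-SA, library 1 was the highest for 8 of the 10 ligands and library 2 the lowest for 7. Within WT, library 1 was the lowest for Lta, Ltb, Tnfsf8 and Tnfsf14 and the highest for Tnf, Cd40lg, Fasl, Tnfsf10 and Tnfsf11.

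The other 8 ligands of the superfamily were mostly at the floor. Tnfsf12, Tnfsf13, Tnfsf15, Tnfsf18 and Eda were at most 0.921 TPM in any library. Tnfsf9, the 4-1BB ligand, was at 10.9 ± 3.10 TPM in Ifnar1-SA and 11.4 ± 1.91 TPM in WT. Tnfsf13b, the B cell survival factor BAFF, was at 2.74, 3.62 and 3.10 TPM in Ifnar1-SA and at 5.49, 1.84 and 1.85 TPM in WT. Tnfsf4, the OX40 ligand, was at 1.51, 0.691 and 1.67 TPM in Ifnar1-SA and at 1.13, 2.42 and 2.92 TPM in WT. None of the 3 tested passed in limma (adjusted p = 0.9997 for each), and 0 had an unadjusted p under 0.05.

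Genes that act below the receptors or on the ligands gave no call in limma either. Of 15 adaptors and enzymes of TNF receptor signalling, 0 passed and 0 had an unadjusted p under 0.05. Of these, 12 were below 0 with a median of −0.09, beside 62.9% and −0.06 for all genes tested. The smallest p-values were those of the ubiquitin ligase gene Traf6 (8.07 ± 2.18 TPM in Ifnar1-SA and 11.8 ± 2.93 TPM in WT), Traf5 (4.96 ± 0.86 and 3.72 ± 0.66 TPM) and Birc2 (5.887 ± 1.295 and 6.92 ± 1.24 TPM). Among 13 NF-kB response genes 0 passed, and the median was −0.13. The inhibitor Tnip1 was at 14.5 ± 2.26 TPM in Ifnar1-SA and 18.95 ± 2.73 TPM in WT, the chemokine Ccl4 at 2551, 5868 and 8010 TPM in Ifnar1-SA and at 4511, 730 and 2209 TPM in WT, and Nfkb2 at 38.1 ± 10.3 and 48.4 ± 6.94 TPM.

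Among 13 genes for ligand shedding and message decay, 11 were tested, 0 passed, and 1 had an unadjusted p under 0.05. This was Zfp36l1, whose product binds AU-rich elements of messages and speeds their decay, at 17.45, 16.98 and 21.03 TPM in Ifnar1-SA and at 14.7, 11.8 and 14.8 TPM in WT. The libraries did not overlap, with a log2 difference of 0.40 ± 0.16 (SE) and a limma adjusted p of 0.9997. Its relative Zfp36 was at 13.2 ± 1.74 TPM in Ifnar1-SA and 14.8 ± 1.36 TPM in WT, and Rhbdf2, a partner of the shedding enzyme ADAM17, at 11.1 ± 0.74 and 9.20 ± 2.84 TPM. Of 21 transcription factor genes of T cell activation 19 were tested and 0 passed, with a median of −0.10. Stat3 was at 125 ± 21.3 TPM in Ifnar1-SA and 166 ± 51.2 TPM in WT, and Rel at 4.23 ± 0.55 and 5.09 ± 0.55 TPM in the same order.

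The 5 tested genes whose pattern over the 6 libraries was most like that of Lta were Gpx3, Ppwd1, Tm4sf5, 1700023D09Rik and Nr4a2, with Pearson's r from 0.961 to 0.981. Nr4a2, an activation-induced nuclear receptor gene, was at 7.80 ± 0.91 TPM in Ifnar1-SA and 9.73 ± 0.83 TPM in WT, without overlap. For Fasl they were Eef1akmt4, Slc35c1, Tex30, Ccne1 and Inpp5b, with r from 0.989 to 0.991. Ccne1, which encodes the cell cycle regulator cyclin E1, was at 37.2, 24.4 and 31.2 TPM in Ifnar1-SA and at 37.7, 19.6 and 19.9 TPM in WT. With 12141 genes and 6 libraries, such values of r are a description only.

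Markers of other cell types were read beside these values. The CD8 T and NK cell list summed to 83.9 to 130 TPM in Ifnar1-SA and to 51.6 to 61.0 TPM in WT, without overlap. Its Ncr1, Klrb1c, Klrd1, Klrk1, Eomes and Gzmk were under 1 TPM in every library, and Gzma made up most of the sum, at 61.4, 109 and 87.0 TPM in Ifnar1-SA against 31.6, 33.9 and 36.3 TPM in WT (limma adjusted p = 0.353). The CD8 genes Cd8a (1.92 to 3.19 TPM in Ifnar1-SA and 1.55 to 4.26 TPM in WT) and Cd8b1 (9.07 to 15.4 and 10.2 to 15.4 TPM) overlapped, with log2 differences of −0.10 and −0.12. Prf1 overlapped too, at 5.18 to 12.0 TPM in Ifnar1-SA and 2.82 to 6.65 TPM in WT. The neutrophil and mast cell list summed to 17.3 to 22.7 TPM in Ifnar1-SA and 7.38 to 10.9 TPM in WT, with 6 of its 8 genes under 1 TPM in every library. Most of it was Ly6g, at 14.2, 15.6 and 21.4 TPM in Ifnar1-SA and at 6.55, 6.46 and 6.51 TPM in WT (limma adjusted p = 0.163). S100a9 overlapped, at 0.891 to 2.11 TPM in Ifnar1-SA and 0.615 to 2.87 TPM in WT. Both sums were higher in Ifnar1-SA where Lta and mean Ltb were lower, and their part in those values was not tested. Sums overlapped between the genotypes for the B cell markers (5.59 to 10.5 TPM in Ifnar1-SA and 5.62 to 13.4 TPM in WT), macrophage and monocyte markers (50.7 to 139 and 36.8 to 60.7 TPM, mostly Ly6c2), dendritic cell markers (374 to 569 and 436 to 829 TPM, nearly all H2-Ab1) and stromal and endothelial markers (3.71 to 5.35 and 3.68 to 7.10 TPM).

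**Figure D4:**
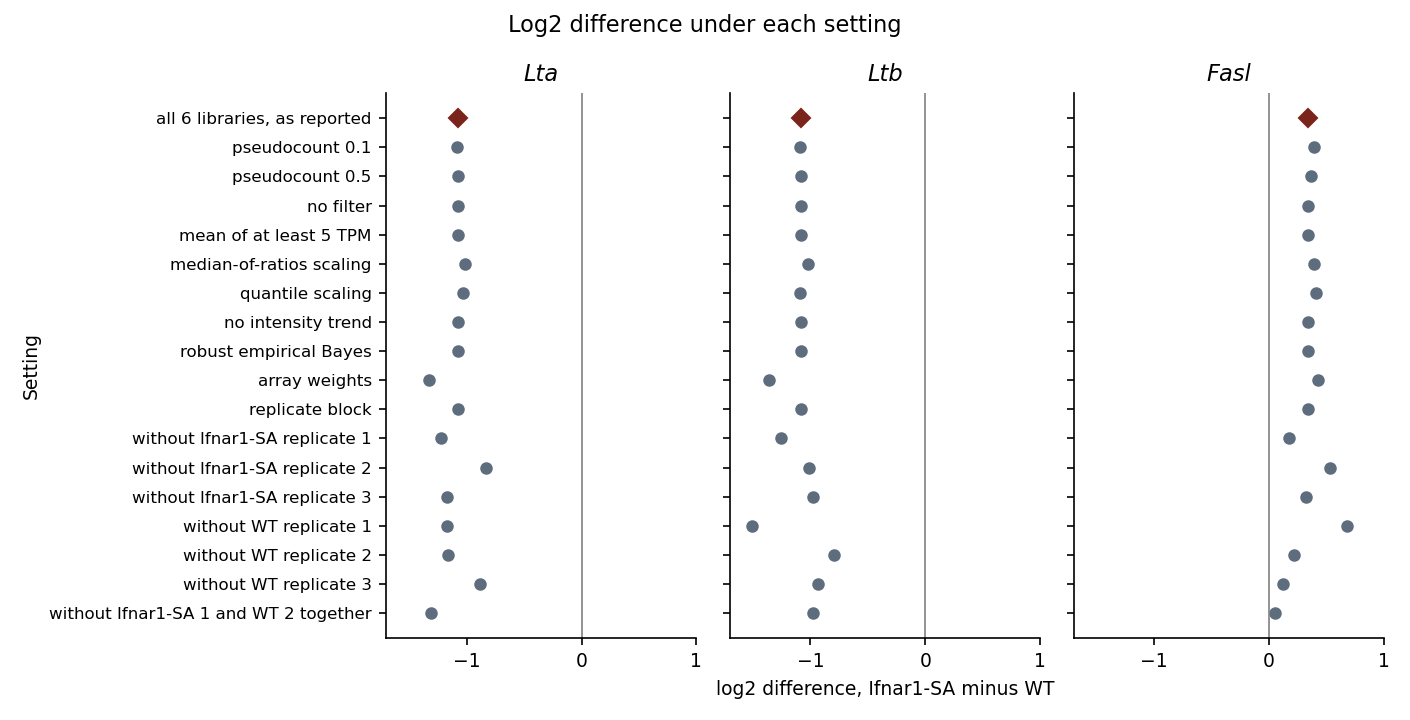
Log2 difference (x axis, Ifnar1-SA minus WT) of Lta, Ltb and Fasl with all 6 libraries (red diamonds) and under each of 17 alternative settings (grey points, rows). Lta lies between −1.33 and −0.83 and Ltb between −1.51 and −0.80, and Fasl lies between 0.05 and 0.68.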

How the data were processed

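For the 6 mRNA libraries, a single table of TPM per gene was deposited, quantified with Salmon on mm10/GRCm38, per the submitters' processing notes. The version, the annotation, the strand setting and the step from transcripts to genes were not given in the sources used here. Each of the 6 columns matched 1 sample title. TPM keeps no depth, so no count model was used, and 1 very abundant gene lowers the TPM of the rest. Values were tested as log2(TPM + 1) with limma 3.58.1 (R 4.3.3), with an intensity trend, two-sided, without a replicate block, over genes that averaged 1 TPM or more. The procedure was tested on simulated data. Genes under the filter got an exact two-sided permutation test. Positions are from GENCODE M21 (GRCm38), matched by symbol, and promoter windows from RefSeq.

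The members and gene lists were chosen with earlier results of these data known. The text names all 10 members, the other ligands, the receptors, up to 3 genes of smallest p from each further list, the 5 genes most correlated with the ligands of most negative and most positive t, Foxp3 and Ifnar1. Of the genes this rule names, 1 is not reported here. Eif2s3y, Ddx3y, Rn4.5s, Mir6236, Mir6974, Mir6973a and the marker genes were added after their values were seen. Alternatives were other pseudocounts (0.1 and 0.5), filters (none, or a mean of at least 5 TPM), scalings (median-of-ratios, quantile) and variance models, a replicate block, and leaving out libraries. Tables came from pandas 2.3.3 and scipy 1.17.1, figures from matplotlib 3.10.9 (Python 3.11.15).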

Additional observations from a re-analysis of the deposited data

How the results depend on the processing

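Over the 17 alternatives tried, 0 ligands passed an adjusted p of 0.05 in any. Lta stayed below 0, at log2 differences of −1.33 (array weights) to −0.83 (without Ifnar1-SA 2), with an unadjusted p of at most 0.0176 and a lowest adjusted p of 0.273. Ltb lay between −1.51 (without WT 1) and −0.80 (without WT 2), and its unadjusted p was under 0.05 in 11 of the 17. Tnf, Tnfsf8 and Fasl kept their sign in the same 17, Fasl between 0.05 and 0.68, with 1 unadjusted p under 0.05 (0.0323, without WT 1). Tnfsf10 turned to 0.029 with median-of-ratios scaling, 0.062 with quantile scaling and 0.14 with array weights. Leaving out 1 library at a time gave −0.25 to 0.22 for Tnfsf10, −0.43 to 0.098 for Tnfsf11, −0.30 to 0.13 for Tnfsf14, −0.36 to 0.000705 for Cd40lg and −0.23 to 0.25 for Cd70. The cause was not tested. The filter of 5 TPM left Tnfsf10 and Tnfsf11 without a value.

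The count of all genes called was 7, and 15 and 14 with pseudocounts of 0.1 and 0.5, 1 with a mean of at least 5 TPM, 12 with robust empirical Bayes and 12 with array weights. It was 17 to 28 when 1 library was left out (17, 19 and 21 without Ifnar1-SA 1, 2 and 3, and 28, 23 and 22 without WT 1, 2 and 3), and 29 without Ifnar1-SA 1 and WT 2 together, the libraries low in Rn4.5s that earlier results of these data had set apart, whose deviations had the highest correlation of any pair across the genotypes (0.248). With the replicate block limma called 0 genes, with 399 at an unadjusted p under 0.05, against 379 without it. The values did not show that the replicate numbers pair the libraries, and 3 libraries per genotype cannot exclude a pairing. Deviations from the genotype means correlated at −0.11, −0.11 and 0.15 for the same numbers, and 2 of 6 libraries correlated best with their own number. Under the block Ltb had an unadjusted p of 0.0562. The depth behind each TPM is unknown.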

Other observations

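The balance of Fasl to its receptor Fas differed more among WT libraries than between the genotypes. The ratio of TPM was 0.630, 0.439 and 0.530 in Ifnar1-SA, and 0.638, 0.149 and 0.137 in WT. WT 1 therefore stood with the Ifnar1-SA libraries in this ratio, as it did in Ltb, Fas and Mir6973a. The ratio of the CD30 ligand gene Tnfsf8 to its receptor gene Tnfrsf8 was 1.20, 0.702 and 1.21 in Ifnar1-SA and 0.904, 1.14 and 2.15 in WT, with overlap.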
